A study of Mus musculus with 5 samples.

Results

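The intergenic Cxxc1 peaks are the regions of the Cxxc1 ChIP-seq list of wild-type (WT) DP thymocytes that lay away from protein-coding genes. The deposited 200-bp windows were joined into a peak where at most 2 windows were missing between neighbours. The strength of a peak was the sum of its windows in RPM, that is, tags per 1000000 mapped tags. An autosomal peak of at most 10 RPM was kept when its midpoint lay outside every protein-coding gene body and the peak did not overlap the 1 kb on either side of a protein-coding transcription start site (TSS). Of 4352 Cxxc1 peaks, 1803 met this rule, which is 41.4% (95% Wilson interval 39.97% to 42.9%). Under the same strength limit, 415 autosomal peaks overlapped the 1 kb around a TSS (promoter peaks) and 2106 had their midpoint in a gene body.

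The study mapped Cxxc1 binding and H3K4me3 in CD4+CD8+ double-positive (DP) thymocytes, with and without Cxxc1, to ask which places Cxxc1 occupies and what happens to H3K4me3 without it. Per the study's methods, WT mice were Cxxc1 fl/fl and Cxxc1-deficient mice were Cxxc1 fl/fl hCD2-Cre, in which a Cre driven by human CD2 sequences removes exons 4 and 5 from an early thymocyte stage on and also in other immune cells. All mice carried the floxed allele, were on a C57BL/6 background after targeting in 129 cells, and were 3 to 4 weeks old unless stated otherwise. The genotype label of the Cxxc1-deficient libraries reads Cxxc1+/- whereas their titles read KO, and the titles were followed. Each group was 1 library, how many mice gave it is not stated, and no difference below has a replicate check or a p-value. Intervals cover counting error over peaks, genes or sequence. The Cxxc1 library held 9.10 to 9.12 M tags, WT H3K4me3 9.46 to 9.47 M and Cxxc1-deficient H3K4me3 9.43 to 9.45 M, as read from the step between RPM values. These gave 14237 WT and 2979 Cxxc1-deficient H3K4me3 peaks. WT H3K4me3 was listed at the promoters of Cd8a, Cd8b1 and Cd3e, which encode surface proteins of thymocytes, and not at those of Cd4, Rag1 and Rag2, although DP cells are defined by CD4 and use the Rag recombinase. It was not listed at those of the B cell gene Cd79a, the myeloid genes Csf1r and Lyz2 or the epithelial genes Krt5 and Krt8. The Rag1 promoter did have H3K4me3 listed in Cxxc1-deficient cells (1.7 RPM).

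Cxxc1, also called CFP1, reads DNA through a CXXC zinc finger that binds CpG dinucleotides without methylation. It is a subunit of the Setd1 methyltransferase complexes, which write H3K4me3, the trimethylated form of a lysine in the histone H3 tail that is found mainly at active and CpG-rich promoters. Distal regulatory elements of thymocytes usually carry less H3K4me3 than promoters and are bound by lineage factors such as Runx, Ets and E proteins.

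The strongest 200-bp windows of 7 intergenic peaks are given to show how unlike they are in CpG, each read from mm9 with CpG dinucleotides in capitals. The peaks are the strongest, the one with most CpG per kb, those nearest to the T-cell genes Zap70, Cd8a, Bcl11b and Id3, and 1 of those with H3K4me3 in both genotypes, near Fos.
Samd9l peak, strongest, chr6:3151601-3151800, plus strand: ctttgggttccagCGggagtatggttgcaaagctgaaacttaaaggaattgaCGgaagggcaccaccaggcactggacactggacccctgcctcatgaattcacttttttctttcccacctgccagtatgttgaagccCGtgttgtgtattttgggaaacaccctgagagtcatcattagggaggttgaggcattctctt
Car15 peak, most CpG, chr16:17833401-17833600, plus strand: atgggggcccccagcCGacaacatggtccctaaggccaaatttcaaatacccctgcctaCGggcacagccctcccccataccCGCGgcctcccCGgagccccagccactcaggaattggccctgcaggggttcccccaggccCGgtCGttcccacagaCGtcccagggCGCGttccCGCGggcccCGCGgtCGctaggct
Zap70 peak, chr1:36816401-36816600, plus strand: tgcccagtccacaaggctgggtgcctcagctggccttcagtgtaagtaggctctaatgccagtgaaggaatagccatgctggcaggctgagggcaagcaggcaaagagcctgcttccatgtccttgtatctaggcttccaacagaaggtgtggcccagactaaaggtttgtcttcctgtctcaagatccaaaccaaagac
Cd8a peak, chr6:71316001-71316200, plus strand: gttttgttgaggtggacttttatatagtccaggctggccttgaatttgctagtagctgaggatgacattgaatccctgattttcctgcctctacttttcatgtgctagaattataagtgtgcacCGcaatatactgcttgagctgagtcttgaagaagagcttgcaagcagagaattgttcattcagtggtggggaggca
Bcl11b peak, chr12:109247001-109247200, plus strand: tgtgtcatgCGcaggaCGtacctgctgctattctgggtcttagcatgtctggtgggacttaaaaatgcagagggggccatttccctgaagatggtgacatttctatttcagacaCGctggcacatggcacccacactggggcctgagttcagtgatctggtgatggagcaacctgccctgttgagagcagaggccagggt
Id3 peak, chr4:135666001-135666200, plus strand: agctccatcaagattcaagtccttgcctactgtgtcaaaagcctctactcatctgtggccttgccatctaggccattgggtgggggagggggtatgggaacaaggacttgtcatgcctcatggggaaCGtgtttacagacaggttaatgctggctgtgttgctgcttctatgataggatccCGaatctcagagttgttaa
Fos peak, chr12:86828401-86828600, plus strand: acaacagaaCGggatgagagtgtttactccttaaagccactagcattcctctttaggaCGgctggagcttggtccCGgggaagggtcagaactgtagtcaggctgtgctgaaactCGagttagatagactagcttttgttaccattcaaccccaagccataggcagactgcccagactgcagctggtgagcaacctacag
The Car15 window holds 15 CpG at 69.5% GC, whereas the Zap70 window holds 0 CpG at 53.0% GC and the Cd8a window 1 CpG at 43.5% GC. The window from the Fos peak holds 4 CpG, those of Bcl11b and the strongest peak 3 each, and that of Id3 holds 2.

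Intergenic Cxxc1 peaks were weak. Their strength had a median of 1.7 RPM with quartiles of 1.5 and 2 RPM, which is about 15 tags for the median peak, 10 tags for the weakest and 53 tags for the strongest. Their width had a median of 1000 bp and ran from 200 to 3800 bp, and 19 peaks consisted of a single window. Gene body peaks had the same median strength of 1.7 RPM and a median width of 1200 bp. Promoter peaks had a median of 2 RPM over 1200 bp. The best window of a peak had a median of 0.7 RPM in all 3 classes. Strength rose with width (Spearman's rho 0.776 over 1803 peaks), as it must for a sum over windows. Its rho to GC content was 0.0795 and to distance from the nearest TSS -0.0588. These are correlations across peaks of 1 library, which share its depth.

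The 10 strongest intergenic peaks ran from 4.0 to 5.8 RPM. The strongest, at chr6:3150801-3151800, held 5.8 RPM and lay 184 kb from the nearest TSS, that of Samd9l, an interferon-induced gene. One of its windows reached 3.4 RPM. The next, at chr2:172651201-172654400, held 5.1 RPM over 3200 bp, 113 kb from the TSS of Bmp7, which encodes a secreted signalling protein of the TGF-beta family. A peak of 4.7 RPM lay 369 kb upstream of Arid1b, a subunit of the BAF chromatin remodelling complex, and one of 4.3 RPM lay 6.53 kb upstream of Mchr1, a receptor for melanin-concentrating hormone. The others were nearest to Gm10008, 3110018I06Rik, Lyzl1, BC048403, 4931429L15Rik and Lrfn2. The 2 peaks left out only by the strength limit, near Axin2 and Pgk2, held 18.9 and 325 RPM. At the TSS limit, the 3 nearest peaks that were kept had their edges 1015 bp (Gm5142), 1040 bp (1700054O19Rik) and 1084 bp (Btbd1) from a TSS, and the 3 just left out had theirs at 971 bp (Pde4dip), 940 bp (Rgs7) and 936 bp (Gcet2).

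The DNA of intergenic Cxxc1 peaks was richer in GC than the sequence around it and than other intergenic sequence. Their GC content had a median of 45.8% (95% interval of the median 45.5% to 46.0%) with quartiles of 43.2% and 48.8%. All 1181674 tiles of 1200 bp cut from autosomal sequence that meets the same intergenic rule had a median of 40.9%. Sequence of the same width 5 kb to either side of the peaks had a median of 44.0% (43.8% to 44.2%). A total of 1596 peaks, 88.5% (87.0% to 89.9%), lay above the median tile, 602 peaks, 33.4% (31.2% to 35.6%), fell in the top 10% of tiles by GC, and 3 fell in the bottom 10%. Gene body peaks had a median of 46.8% and promoter peaks of 53.1%.

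**Figure D1:**
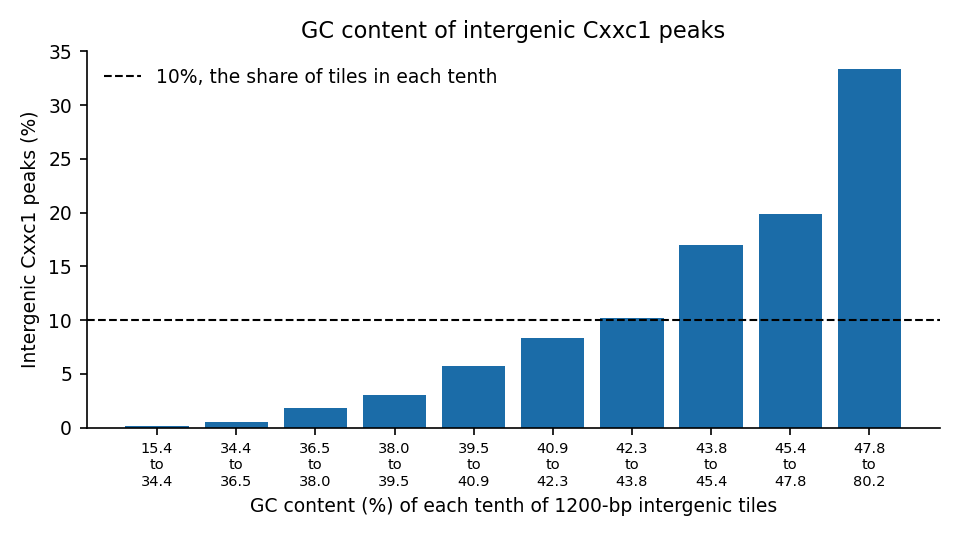
Share of the 1803 intergenic Cxxc1 peaks (vertical axis, %) in 10 classes of equal size of the 1181674 intergenic tiles ordered by GC content (horizontal axis, GC range in %). Bars rise from 0.166% of peaks in the class lowest in GC to 33.4% in the highest, and the dashed line marks the 10% of tiles in each class.

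The rise in GC was local and lay on a wider plateau. In 200-bp bins, GC averaged 46.0% at the midpoint of intergenic peaks and 44.2% at 1 kb upstream in the genome, 44.0% at 1 kb downstream, and 44.0% and 43.8% at 5 kb, all above the median tile. Around promoter peaks it averaged 54.3% at the midpoint and 45.8% and 45.7% at 5 kb. The step between midpoint and flank was therefore larger at promoter peaks than at intergenic peaks, in means over 415 and 1803 peaks.

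**Figure D2:**
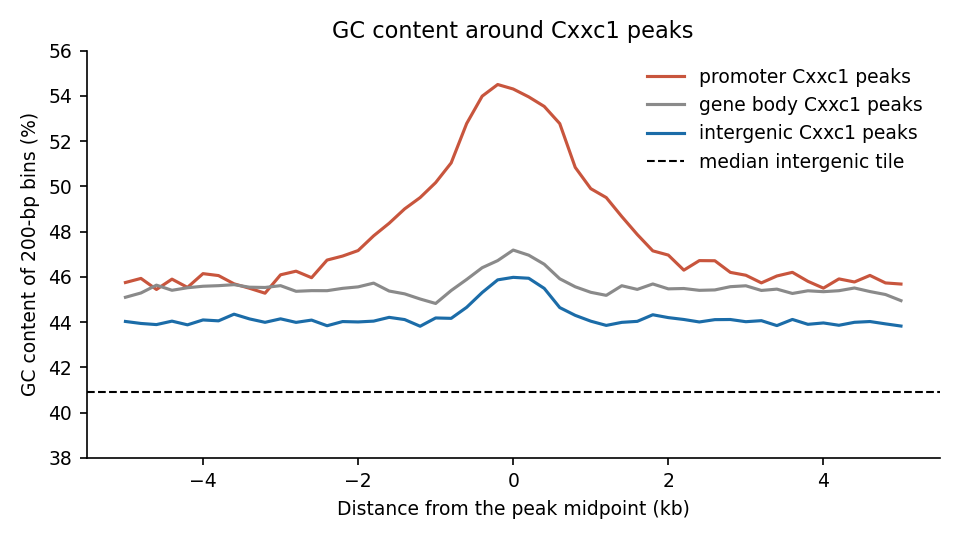
Mean GC content of 200-bp bins (vertical axis, %) by distance from the peak midpoint (horizontal axis, kb, in genome orientation) for promoter, gene body and intergenic Cxxc1 peaks. The intergenic curve peaks at 46.0%, the gene body curve reaches 47.2% and the promoter curve passes 54%, and all curves stay above the dashed line at the median intergenic tile, 40.9%.

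CpG dinucleotides were more frequent than in other intergenic sequence, yet still depleted. Intergenic peaks had a median of 10 CpG per kb (9.29 to 10), tiles 5.83, flanking sequence 8.33, gene body peaks 11 and promoter peaks 30. The observed to expected CpG ratio had a median of 0.183 (0.178 to 0.188) in intergenic peaks, 0.148 in tiles, 0.177 in flanks, 0.201 in gene body peaks and 0.427 in promoter peaks. Only 10 intergenic peaks, 0.555% (0.302% to 1.02%), reached a ratio of 0.65, against 0.172% of tiles and 26.3% (22.3% to 30.7%) of promoter peaks. No CpG at all was found in 13 peaks.

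CpG islands, defined here by a minimum of 500 bp, 55% GC and a ratio of 0.65, overlapped 34 intergenic peaks, 1.89% (1.35% to 2.62%), where 7.05% of the 4324 Cxxc1 peaks of all 3 classes did. The share was 0.712% in tiles and 0.721% (0.485% to 1.07%) in flanking sequence that meets the intergenic rule. It was 1.28% (0.883% to 1.86%) in gene body peaks and 58.8% (54.0% to 63.4%) in promoter peaks. These shares depended strongly on the definition. With minima of 200 bp, 50% GC and a ratio of 0.6, islands overlapped 12.8% (11.3% to 14.4%) of intergenic peaks, 10.7% (9.65% to 11.8%) of the same flanks and 7.54% of tiles. Under these minima the intervals of peaks and flanks overlapped, and gene body and promoter peaks had 17.0% and 68.2%. When only touching windows were joined, the share under the first definition was 1.302% (0.992% to 1.71%) of 3916 intergenic peaks and 49.8% of promoter peaks. The peaks with most CpG were at chr16:17833401-17835000, 4.11 kb downstream of the TSS of the carbonic anhydrase gene Car15, with 92.5 CpG per kb and 1.6 RPM, and at chr7:144513001-144514600, 7.67 kb upstream of Ebf3, which encodes a transcription factor, with 86.9 CpG per kb and 2.4 RPM. The third, at chr2:11474601-11475800 and 49.7 kb from the TSS of the splicing factor gene Rbm17, had 64.2 CpG per kb and 2.3 RPM. Of these 3 island peaks, the Rbm17 peak alone had a listed H3K4me3 peak, in WT.

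Exact repeats of 32 bp were rare in the peaks, and diverged copies of repeats were not measured. Of the 32-bp words in intergenic peaks, 2.55% occurred elsewhere in the genome, against 9.88% in flanks and 19.1% in every 100th intergenic tile. The authors kept uniquely mapped reads only, and the part of that filter in the difference was not tested. Among regions with at most 5% repeated words, the median GC was 45.8% in 1504 intergenic peaks and 40.5% in 5934 tiles, so the difference in GC was as large there. In 2 intergenic peaks repeated words made up more than 50% of the sequence. They were the strongest one, near Samd9l, with 62.3%, and one of 2.3 RPM near 1700016C15Rik with 52.5%. In the Arid1b peak, the third strongest, repeated words made up 33.3%, and their part in its strength was not tested.

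Intergenic Cxxc1 peaks lay nearer to genes than intergenic sequence does. The distance from midpoint to the nearest protein-coding TSS had a median of 57.8 kb (52.7 to 62.8 kb) with quartiles of 20.1 and 158 kb, and the median for tiles was 104 kb. Per Mb of tiles, there were 1.90 peaks between 1 and 2 kb from a TSS, 1.72 between 20 and 50 kb and 1.65 between 50 and 100 kb. The density then dropped to 1.35 per Mb between 100 and 200 kb, 0.863 between 200 and 500 kb and 0.426 beyond 500 kb. The median GC of the peaks was also lower in the far classes, from 47.7% between 5 and 10 kb to 42.5% beyond 500 kb. Which of GC content and distance the density follows was not tested, nor was the part of repeated sequence in it. Up to 100 kb, the density thus showed little slope towards the TSS. By midpoint, tiles begin at 1.6 kb from a TSS and the narrower peaks at 1.38 kb. The density between 1 and 2 kb therefore counts some peaks where no tile can lie. Peaks upstream of their nearest TSS made up 59.3% (57.0% to 61.5%), and tiles 58.8%.

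**Figure D3:**
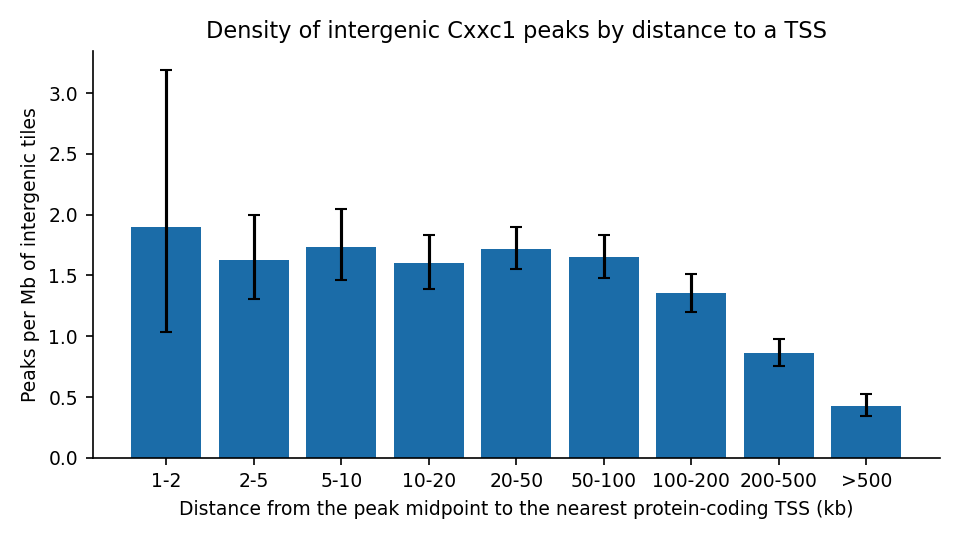
Number of intergenic Cxxc1 peaks per Mb of intergenic tiles (vertical axis) by distance from the midpoint to the nearest protein-coding TSS (horizontal axis, kb), with exact 95% Poisson intervals as error bars. The first 6 bars lie between 1.60 and 1.90 per Mb and the last falls to 0.426 per Mb beyond 500 kb. The first bar sets peaks from 1.38 kb on against tiles from 1.6 kb on.

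The nearest peaks to a TSS by midpoint were upstream of Btbd1 (1.38 kb, 1.9 RPM), 4930404A10Rik (1.55 kb, 1.7 RPM) and Fam136a (1.58 kb, 1.5 RPM). The farthest lay 1888 kb from Cntnap5b, 1878 kb from Pik3c3 and 1670 kb from Cdh9, with 1.7, 1.5 and 1.4 RPM, so that remote peaks were of ordinary strength. Density over all autosomes was 1.27 per Mb (exact Poisson interval 1.21 to 1.33), from 1.05 (0.862 to 1.26) on chromosome 3 to 1.81 (1.36 to 2.36) on chromosome 19. Neighbouring peaks on a chromosome were separated by a median of 685.5 kb, and 38 of 1784 such pairs, 2.13%, lay under 10 kb apart. Genes of other biotypes overlapped 94 peaks, 5.21% (4.28% to 6.34%), and 4.35% of tiles. Among these, annotated lincRNAs overlapped 37 peaks and processed transcripts 46. Pseudogenes overlapped 7 peaks, 0.388% (0.188% to 0.799%), against 0.702% of tiles.

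The gene with the nearest TSS was then taken as the neighbour of each peak, which does not show that the peak acts on it. Of 21275 autosomal protein-coding genes, 1488 (6.99%) were the neighbour of at least 1 intergenic peak. One peak was found for 1251 of them, 2 for 181, 3 for 41, 4 for 10, 5 for 3 and 6 for 2. The 2 genes with 6 peaks were Cd83, which encodes a surface protein of activated dendritic cells and of thymic epithelium, and 3110018I06Rik. The 6 Cd83 peaks held 1.5 to 2.8 RPM, 2 of them 49.3 and 64.6 kb upstream and 4 from 351 to 451 kb downstream. Fam19a5, the splicing regulator gene Ptbp2 and Sox2, a pluripotency factor, had 5 peaks each. Among the genes with 4 were Myc, Klf4, Bcl11a and Gata3, all of which encode transcription factors. The 4 Myc peaks lay 253, 285, 314 and 581 kb downstream and held 2.4, 1.6, 1.6 and 2.7 RPM. The 4 Klf4 peaks lay 31.5 to 88.1 kb downstream, with 1.5 to 2.2 RPM. Genes with several peaks mostly had wide intergenic surroundings. Sox2 had 0.832 Mb and Myc 1.44 Mb of tiles to itself against a median of 0.0168 Mb for all genes, whereas the 3 Cebpb peaks lay in 0.120 Mb and the 3 Atf3 peaks in 0.0660 Mb.

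T-lineage genes were the neighbours of 19 intergenic Cxxc1 peaks. The list of 52 genes of thymocyte identity and T cell receptor signalling matched 51 in the annotation, and 12 of these, 23.5% (14.0% to 36.8%), had at least 1, beside 6.99% of all genes. Because their intergenic surroundings are wider, the comparison was also made per Mb of tiles. It gave 2.79 peaks per Mb (1.68 to 4.36) around T-lineage genes and 1.27 around all genes, and within GC contents of 43.2% to 48.8% it gave 5.11 (2.55 to 9.14) and 2.34. The list includes Cd8a, Zap70, Bcl11b, Satb1 and Egr1, which the study reported as Cxxc1 targets from the same ChIP-seq data and changed expression in RNA-seq. For Cd8a and Zap70 it also showed binding by ChIP-PCR. Lck, Ptprc and Lcp2, also on the list and reported as targets, were the neighbour of no intergenic peak. The excess over all genes is therefore not independent of the study's report. No chance level was computed for these lists.

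Among genes of T cell receptor signalling and the coreceptors, Zap70, the kinase that relays the receptor signal, had 1 peak of 1.5 RPM 2.09 kb upstream. Cd8a, which encodes the CD8 alpha chain, had 1 peak of 1.6 RPM 7.42 kb upstream, only 400 bp wide. Among transcription factors of the lineage, Bcl11b, which holds T cell commitment, had 3 peaks, of 3.2 RPM 4.49 kb upstream and of 1.4 and 1.4 RPM 124 and 127 kb downstream. The 1.99 Mb between the TSSs of Vrk1 and Bcl11b held 9 intergenic peaks of 1.3 to 4.2 RPM. Gata3, which is needed for T cell specification and the CD4 lineage, had 4 peaks, at 70.6, 258, 432 and 1253 kb downstream, of 1.7, 1.8, 1.5 and 1.9 RPM. Runx3, a factor of the CD8 lineage, had 2 peaks of 1.8 RPM each, 31.3 and 57.5 kb upstream, and its relative Runx1 had 1 of 2.6 RPM 101 kb upstream. Satb1, a chromatin organiser of thymocytes, had 2 peaks, of 1.8 RPM 8.29 kb upstream and of 1.4 RPM 279 kb downstream. Id3 and Id2, inhibitors of E proteins, had 1 each, of 2.0 RPM 32.9 kb upstream and of 1.8 RPM 317 kb upstream. The remaining ones were 1 peak each for Egr1, a factor induced by receptor signals (1.6 RPM, 6.16 kb upstream), the survival gene Bcl2 (1.4 RPM, 196 kb downstream) and Ets1 (2.2 RPM, 567 kb downstream). The 19 peaks were thus of ordinary strength, with only the upstream Bcl11b and the Runx1 peaks above 2.5 RPM.

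Genes of the developmental families Hox, Pax, Sox, Fox, Lhx and Pou were the neighbour of 38 peaks. These fell to 25 of 130 genes, 19.2% (13.4% to 26.8%), at 3.03 per Mb (2.15 to 4.16), beside 6.99% and 1.27 per Mb for all genes. Within the GC range above they had 3.27 per Mb (1.87 to 5.32), an interval that holds the 2.34 of all genes. Examples are the 5 Sox2 peaks of 1.6 to 1.9 RPM, the 3 Sox4 peaks of 1.5 to 2.9 RPM, and 2 Foxo1 peaks of 2.0 and 1.5 RPM 101 and 145 kb downstream. Foxo1 and Sox4 act in lymphocytes, Sox2 in stem cells. Genes named Zfp, for zinc finger protein, had 1.09 peaks per Mb (0.675 to 1.67) from 21 peaks at 17 of 361 genes. Ribosomal protein genes had 1.21 (0.719 to 1.92) from 18 peaks at 16 of 144 genes, or 7 peaks at 6 of 89 genes without those named as pseudogenes. Olfactory receptor genes had 10 peaks at 10 of 1106 genes, 0.385 per Mb (0.185 to 0.708), in sequence with a median GC of 38.7%. Within the GC range, where all genes had 2.34 per Mb, the Zfp list had 1.804 (0.932 to 3.15), the ribosomal list 2.30 (1.104 to 4.23) and olfactory receptor genes 0.680 (0.140 to 1.99) from 3 peaks. The 9 genes of the Setd1 complexes found in the annotation had 0 peaks in 0.353 Mb, which allows up to 10.5 per Mb. Tiles were not limited to sequence where reads map uniquely, and the part of repeated sequence in these densities was not tested.

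**Figure D4:**
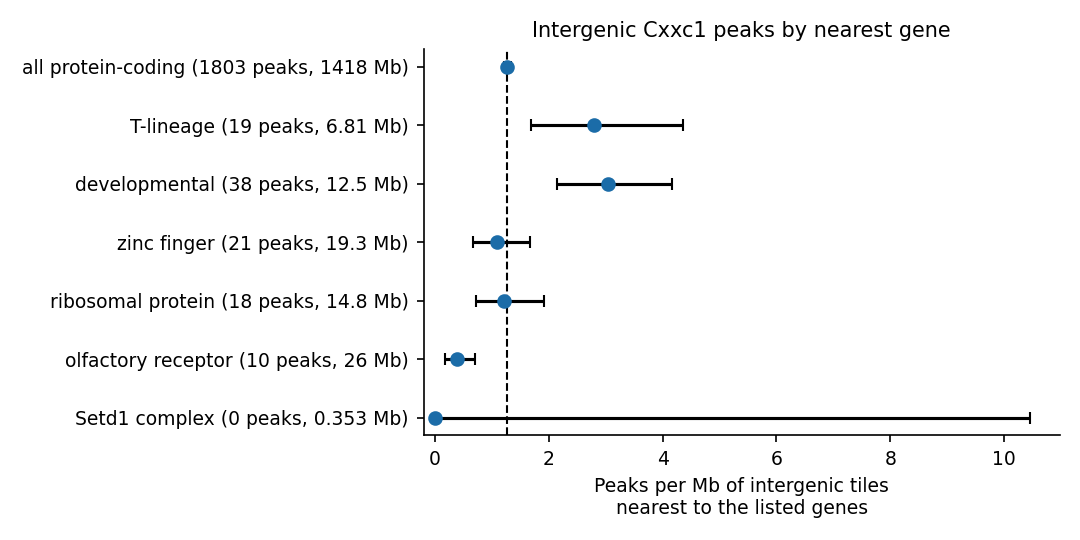
Intergenic Cxxc1 peaks per Mb of intergenic tiles (horizontal axis) for tiles nearest to genes of each list (vertical axis, with the number of peaks and the Mb of tiles), points with exact 95% Poisson intervals. The dashed line marks all genes, 1.27 per Mb, with T-lineage genes at 2.79 and developmental genes at 3.03 to its right and olfactory receptor genes at 0.385 to its left.

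At the promoters of the neighbouring genes, a WT H3K4me3 peak was listed within 1 kb of a TSS for 532 of 1488, 35.8% (33.4% to 38.2%), and for 6390 of 19787 genes that were the neighbour of none, 32.3% (31.6% to 32.9%). The share was 38.3% (32.4% to 44.5%) for the 243 genes with a peak within 10 kb and 31.2% (27.3% to 35.4%) for the 503 genes with one at 100 kb or more, so it was not higher at every distance. Of the promoters with a WT peak, a Cxxc1-deficient peak was listed as well at 75 of 532 in the first group, 14.1% (11.4% to 17.3%), and at 12.7% (11.9% to 13.5%) in the second. T-lineage neighbours had WT H3K4me3 at 10 of 12 promoters, and at 5 of these it was also listed in Cxxc1-deficient cells. The other T-lineage genes had it at 21 of 39, and at 4 of these it was also listed in Cxxc1-deficient cells. In WT and then Cxxc1-deficient cells, the promoter of Zap70 held 6.9 and 2.3 RPM, Runx1 8.7 and 2.6 RPM, Egr1 6.3 and 2.5 RPM, and Cd8a 3.5 and 2.1 RPM, whereas Gata3 held 3.4 and 4.0 RPM. At Satb1 (7.0 RPM), Id3 (5.4 RPM), Runx3 (4.9 RPM), Bcl2 (2.8 RPM) and Bcl11b (2.3 RPM) the promoter was listed in WT only. These values are sums over windows called separately in each library, and they moved with the length listed. Of the 5 promoters listed in both genotypes, 4 had a lower sum in Cxxc1-deficient cells. Listed windows covered 4800 and 1600 bp at Zap70, 5000 and 1800 bp at Runx1, 3600 and 1600 bp at Egr1, 2200 and 1400 bp at Cd8a, and 1800 and 2200 bp at Gata3. The mean per listed window was 0.2875 and 0.2875 RPM at Zap70, 0.348 and 0.289 at Runx1, 0.350 and 0.3125 at Egr1, 0.318 and 0.3 at Cd8a and 0.378 and 0.364 at Gata3, where 1 tag is worth about 0.106 RPM. Genes listed in 1 genotype have an unknown value in the other, not a value of 0. The study's methods leave unstated whether Cxxc1-deficient ChIP was a control in calling WT H3K4me3 peaks. The part of such a control in these counts was not tested.

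At the intergenic Cxxc1 peaks themselves, H3K4me3 was rarely listed. A WT H3K4me3 peak overlapped 59 of 1803, 3.27% (2.55% to 4.20%), where 6.20% of Cxxc1 peaks of all 3 classes had one. When only touching windows were joined, it was 83 of 3916, 2.12% (1.71% to 2.62%), beside 4.58% of all 3 classes, 23.4% of promoter peaks and 3.73% (3.23% to 4.31%) of gene body peaks. Under the main rule the share was 28.4% (24.3% to 33.0%) at promoter peaks and 4.32% (3.53% to 5.28%) at gene body peaks. It was 1.38% (1.04% to 1.84%) in flanking sequence that meets the intergenic rule and 0.554% in intergenic tiles. In Cxxc1-deficient cells 11 intergenic peaks had a listed H3K4me3 peak, 0.610% (0.341% to 1.09%), against 1.09% over all 3 classes, 0.270% (0.142% to 0.513%) in flanks and 0.155% in tiles. H3K4me3 was listed in neither genotype at 1737 peaks, 96.3% (95.4% to 97.1%). GC content moved with these shares. Among peaks of 43.2% to 48.8% GC, WT H3K4me3 was listed at 11 of 908, 1.21% (0.678% to 2.16%), and at 0.596% of tiles in that range. Repeated words were rarer in peaks than in flanks and tiles, and their part in these differences was not tested.

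In windows around the peaks, the same was seen at finer scale. Of intergenic 200-bp windows centred within 1 kb of the midpoint of an intergenic Cxxc1 peak, 1.31% were listed for WT H3K4me3, against 0.778% of those 2 to 10 kb away and 0.262% of all intergenic windows. For Cxxc1-deficient cells the values were 0.340%, 0.158% and 0.0680%. At promoter peaks 18.6% of the windows at the midpoint were listed in WT. When windows in genes and promoters around the intergenic peaks were included, the rise at the midpoint was no longer seen, with 1.28% at the midpoint, 1.22% at 10 kb to the left and 1.16% at 10 kb to the right. The nearest WT H3K4me3 peak lay a median of 94.4 kb from an intergenic Cxxc1 peak and 337 kb from a tile. The part of repeated sequence in these window shares and distances was not tested.

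**Figure D5:**
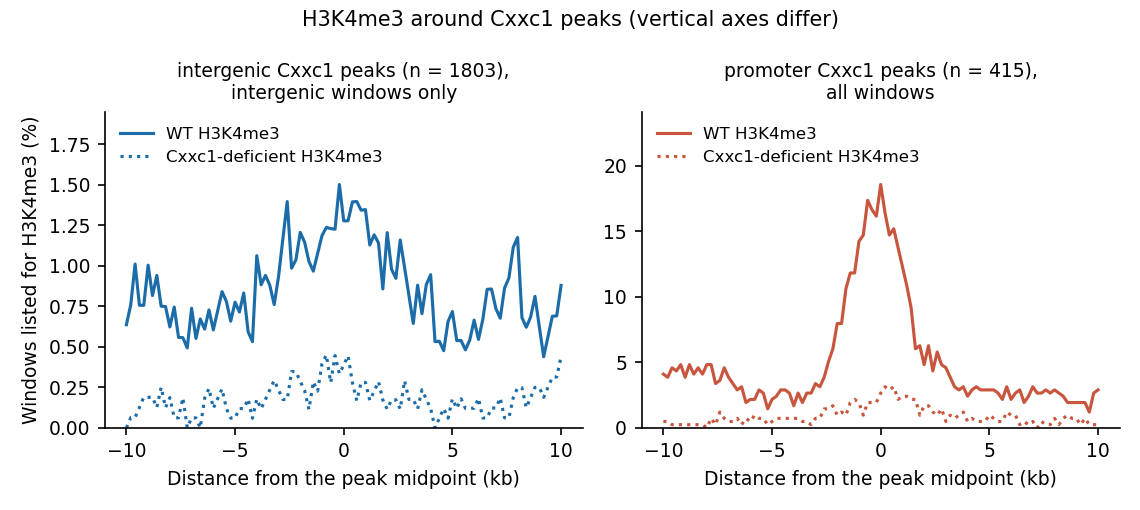
Share of 200-bp windows listed for H3K4me3 (vertical axes, %, on different scales) by distance from the midpoint of the Cxxc1 peak (horizontal axis, kb), in WT (solid) and Cxxc1-deficient (dotted) DP thymocytes. Left, windows that meet the intergenic rule around 1803 intergenic peaks, where the WT share is 1.28% at the midpoint. Right, all windows around 415 promoter peaks, where it is 18.6%.

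The 59 intergenic Cxxc1 peaks with WT H3K4me3 differed from the other 1744 in composition and place. Their median GC was 50.8% (49.9% to 52.8%) and that of the others 45.6% (45.4% to 45.8%). They held a median of 16.7 CpG per kb (13.3 to 20.8) against 9.44 (9 to 10), and lay a median of 24.1 kb (18.7 to 36.6 kb) from a TSS against 60.2 kb (54.99 to 65.1 kb). Their strength had a median of 1.9 RPM (1.7 to 2.1) against 1.7, and their width a median of 1200 bp (1000 to 1400 bp) against 1000 bp (1000 to 1200 bp). A CpG island overlapped 15 of the 59, 25.4% (16.1% to 37.8%), and 19 of the 1744, 1.09% (0.699% to 1.70%). The share with WT H3K4me3 was 0 of 246 (0 to 1.54%) among peaks under 5 CpG per kb and 12 of 31, 38.7% (23.7% to 56.2%), from 30 CpG per kb on, where it was 7.71% in tiles. By distance it was 24 of 448, 5.36% (3.63% to 7.85%), between 1 and 20 kb from a TSS. Beyond 200 kb it was 0 of 340 (0 to 1.12%), and 0.0619% in tiles. By strength it was 3 of 265, 1.13% (0.386% to 3.27%), below 1.5 RPM and 6 of 46, 13.0% (6.12% to 25.7%), from 3 RPM on. Stronger peaks were also wider and overlap was counted from 1 bp, so the part of width in these shares was not tested. WT H3K4me3 at these 59 places had a median of 2.2 RPM (1.3 to 6.7 RPM), against 2.3 RPM for all WT peaks, with a rho of 0.104 to Cxxc1 strength over 59 peaks.

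The highest WT H3K4me3 at intergenic Cxxc1 peaks, named after these values were seen, was 6.7 RPM at a peak 19.3 kb upstream of Gabbr2, a GABA receptor subunit gene, followed by 6.2 RPM at the Samd9l peak. Repeated words made up 62.3% of the Samd9l peak, and their part in its H3K4me3 value was not tested. Hmga2, encoding a chromatin protein of proliferating cells, had 1 of its 3 peaks marked (2.0 RPM) and Cebpb, a transcription factor gene, 2 of 3 (3.2 and 2.0 RPM). A peak 53.8 kb downstream of Bcl2l11, which encodes the death factor BIM, had 2.8 RPM. Of the 19 T-lineage peaks, 1 had WT H3K4me3, the Id3 peak with 2.6 RPM, and 0 had it in Cxxc1-deficient cells. Over all intergenic peaks these shares were 3.27% and 0.610%. All 9 peaks between Vrk1 and Bcl11b had H3K4me3 listed in neither genotype, as did 96.3% of all intergenic peaks.

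Of the 59 peaks with WT H3K4me3, 4 also had it in Cxxc1-deficient cells, 6.78% (2.67% to 16.2%). The share was 9.32% (5.29% to 15.9%) at promoter Cxxc1 peaks, 4.40% (1.72% to 10.8%) at gene body Cxxc1 peaks and 8.17% (7.73% to 8.63%) over all 14237 WT peaks. The study's methods name Cxxc1-deficient ChIP as a control in peak calling and do not say whether this held for H3K4me3. If it did, WT peaks were chosen for signal above the Cxxc1-deficient library. The part of this in these shares was not tested. Values are given for 3 of the 4 intergenic peaks. The first, at chr11:98320601-98322600 and 13.5 kb downstream of the TSS of the adaptor gene Grb7, held 2.1 RPM of Cxxc1, 5.2 RPM of WT and 3.5 RPM of Cxxc1-deficient H3K4me3. The second, at chr12:86827801-86829200 and 13.7 kb downstream of Fos, a subunit of AP-1, held 2.0, 3.2 and 2.0 RPM. The third, at chr8:121949401-121951200 and 7.72 kb upstream of the stress-induced gene Osgin1, held 2.3, 5.6 and 4.1 RPM. Of the 4, the sum was lower in the Cxxc1-deficient library at these 3 and higher at the other. The length listed moved in the same direction, from 2800 to 2200 bp at Grb7, from 1800 to 1400 bp at Fos and from 3400 to 2400 bp at Osgin1. The mean per listed window was 0.371 and 0.318 RPM at Grb7, 0.356 and 0.286 at Fos and 0.329 and 0.342 at Osgin1. None of the 4 overlapped a CpG island.

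H3K4me3 was listed in Cxxc1-deficient cells alone at 7 peaks, 0.388% (0.188% to 0.799%) of the 1803. Of these, 6 are named here, after their values were seen, by their neighbours Them5 (2.7 RPM), the histone H3.3 gene H3f3a (2.6 RPM), Pou2f1, which encodes OCT1 (2.5 RPM), Plcl2 (1.9 RPM), Xrcc6bp1 (1.7 RPM) and the phosphatase regulator gene Ensa (1.6 RPM). They lay 3.02 to 41.0 kb from the nearest TSS. The Pou2f1 peak overlapped a CpG island. With or without WT H3K4me3, Cxxc1-deficient H3K4me3 was listed at 0.610% of intergenic, 4.58% of promoter and 0.807% of gene body Cxxc1 peaks.

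Letters of 8 short motifs were searched on both strands in the 400 bp around the strongest window of each intergenic peak, next to 3564999 intergenic tiles of 400 bp. CCGG, with a CpG at its centre, was found in 25.96% (24.0% to 28.0%) of intergenic peaks, 16.3% of tiles and 60.2% of promoter peaks. CGCG was found in 5.77% (4.78% to 6.94%), 3.003% and 36.1%. At GC contents of 43.0% to 49.8% the values for peaks and tiles came together, at 24.6% (22.0% to 27.5%) and 24.9% for CCGG and at 4.47% (3.33% to 5.99%) and 4.11% for CGCG. The core letters of Runx sites, TGTGGT, were found in 30.3% (28.2% to 32.4%) of intergenic peaks, 25.3% of tiles and 22.2% of promoter peaks. In the same GC range they were found in 31.7% (28.8% to 34.8%) of peaks and 27.4% of tiles. AGGAAG, the letters of many Ets sites, was found in 44.9% (42.6% to 47.2%) and 37.0%, and in 46.5% (43.4% to 49.7%) and 42.8% in that range. Of the 8 motifs, these 2 lay above tiles of like GC by more than the counting interval. The lower bounds in peaks, 28.8% and 43.4%, were close to the 27.4% and 42.8% of tiles. In the same data, the study's own motif search over Cxxc1 sites had named RUNX1, TCF3, BCL6B, RARG and RARA as potential partners. The Runx result is therefore not independent of that search. Tiles were matched on GC only and not on repeated words, which were rarer in peaks than in intergenic tiles. The part of repeated sequence in these differences was not tested. The E box form CAGCTG was found in 20.6% of peaks and 12.9% of tiles, and at like GC in 19.7% (17.3% to 22.4%) and 18.1%. Another form, CACCTG, was found in 28.2% and 21.0%, and at like GC in 28.1% (25.3% to 31.1%) and 26.9%. The palindrome CACGTG was rare, at 4.88% and 3.51%, and at like GC at 4.58% (3.42% to 6.11%) and 4.48%. The nuclear receptor letters AGGTCA were found in 26.2% and 20.5%, and at like GC in 24.2% (21.5% to 27.0%) and 23.3%. For these 4, tiles of like GC lay within the counting intervals of the peaks. No motif contains another of the 8. A match gives letters in a window and not a bound site.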

How the data were processed

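DP thymocytes with and without Cxxc1 gave 5 ChIP-seq libraries, 1 per group, of which 3 lists of windows were used here. The Cxxc1-deficient Cxxc1 library and the input were not analysed here. The study's methods state that crosslinked chromatin was sheared by sonication, that 50-bp reads were obtained with CASAVA 1.8.2 and mapped to mm9, and that reads with a unique place entered SICER 1.1 with Cxxc1-deficient ChIP and input as controls. The aligner and the treatment of duplicates are not given in the sources used here. The authors deposited RPM values at 1 decimal for the 200-bp windows of called islands, so places outside the lists have an unknown value. The Cxxc1 list carries no genotype and was taken as WT from the study's methods.

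Windows were joined, placed against protein-coding genes of GENCODE vM1 (mm9) and overlapped by at least 1 bp in Python 3.11.15 (numpy 2.4.6, pandas 2.3.3, scipy 1.17.1, numba 0.67.0). Composition was read from the mm9 sequence for peaks, for sequence 5 kb to each side and for all intergenic tiles without N. Repeated sequence was the share of 32-bp words found more than once in the genome. Shares carry 95% Wilson intervals, densities exact Poisson intervals and medians order-statistic intervals. No test was run, since peaks and genes are not replicates. The functions were tested on simulated data.

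The members, gene lists and alternatives were chosen with earlier results of these data known. Named were the 10 strongest peaks, those with H3K4me3 in both genotypes, the 3 richest in CpG, the 3 nearest to and the 3 farthest from a TSS, neighbours on the gene lists and genes with 3 or more peaks. Repeated words, matching on GC, densities per Mb, flanking H3K4me3, promoters of neighbours, markers, chromosome X, listed lengths, class shares under alternatives, the Vrk1 to Bcl11b interval and the ribosomal list without pseudogene names were added after the data were seen. Some items that these rules name are not reported here.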

Additional observations from a re-analysis of the deposited data

How the results depend on the processing

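Alternatives gave 41 values for 6 results, of which 32 stayed within the counting error or within 1.5 times the main count and 9 moved. These are single values, so no direction was tested. Joining only touching windows gave 3916 intergenic peaks, of which 2.12% had WT H3K4me3 and 1.302% a CpG island. The stronger 50% held 901 peaks with 2.66% at a CpG island. Leaving out 5 kb around each TSS moved the median distance to 65.3 kb. That rise and the count of 901 follow from their settings and say nothing on robustness. Requiring 50% of the shorter region to be shared gave 2.27% with WT H3K4me3, and peaks within 1 kb gave 4.44%. Islands of at least 200 bp with 50% GC and a ratio of 0.6 gave 12.8%. No paired analysis was possible because the groups hold 1 library each, and leaving out a replicate was not possible either. About 15 tags per median peak, no value outside the lists and the use of uniquely mapped reads limit what absence from a list shows.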

Other observations

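Chromosome X, which the rule leaves out, was sparse in all 3 lists. It held 22 of the Cxxc1 peaks, 6 of them intergenic, which is 0.0518 per Mb of intergenic tiles against 1.27 per Mb on the autosomes. WT H3K4me3 had 28 peaks on chromosome X, 19 of them intergenic (0.164 per Mb), beside 14193 on the autosomes, with 2806 intergenic (1.98 per Mb). Cxxc1-deficient H3K4me3 had 2 peaks on chromosome X and 2975 on the autosomes. The sex of the mice is not given in the sources used here, and the cause of the difference was not tested.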
